A study of Mus musculus with 16 samples.

Results

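Fetal cortex from offspring of 2 ethanol-exposed parents was compared with fetal cortex from offspring whose mother alone was exposed. The comparison used 8 of the 16 libraries of the study: 4 from dual exposure and 4 from maternal exposure, each with 2 male and 2 female fetal samples. The libraries were chosen by the exposure and sex that their labels give. All were total RNA of mouse (Mus musculus) cortex at gestational day 16. The mother was exposed to ethanol in every one of these 8 libraries, so the groups differ in the exposure of the father. The other 8 libraries, 4 from unexposed controls and 4 from paternal exposure alone, entered the same fit, and their difference shares no library with the one described here. The sources used here do not give strain, dose, the timing of exposure, the litter of each fetus or any pooling of fetuses. Replicates were not stated to be separate animals, so the p-values measure the spread between these samples, which may be technical.

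Several kinds of RNA are named below. Total RNA holds unspliced precursors and nuclear RNAs beside mature mRNA. TEC genes (annotated transcripts that still await experimental support) and sense-intronic genes are annotated units that mostly lie within introns of longer genes, so reads from an unspliced precursor can be counted on them. Y RNAs are short cytoplasmic RNAs bound by the Ro60 protein, small nucleolar RNAs guide the modification of ribosomal RNA, and small Cajal body RNAs guide that of spliceosomal RNAs. At this stage the mouse cortex holds radial glia, intermediate progenitors and newborn neurons, together with growing blood vessels, blood, meninges and microglia. How strand and reads with several places were handled in counting is not given in the sources used here. Antisense, overlapping and intronic genes and near-identical copies, among them the globins and the ribosomal protein genes with their pseudogenes, are therefore uncertain.

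Defining markers of cortical neurons were present in every library. Tbr1, a factor of deep-layer neurons, had 329 to 386 CPM (counts scaled to the TMM-adjusted library total) in maternal and 324 to 344 CPM in dual libraries. Markers of choroid plexus, a neighbouring tissue, summed to 13.3 to 19.2 CPM in maternal libraries and to 13.4 to 200.4 CPM in dual libraries. The highest of these sums was female dual replicate 2, with 156 CPM of Ttr. Y-linked counts and Xist matched the labelled sex in all 8 libraries.

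The libraries differed in composition. The 4 male libraries held 15646083 to 16745089 counts and the 4 female ones 26134287 to 33489644, so sex and depth went together. TEC and sense-intronic genes took 0.369% and 0.363% of counts in male maternal libraries and 0.511% and 0.365% in male dual libraries. In females they took 0.391% and 0.374% in maternal and 0.872% and 0.86% in dual libraries. Both female dual libraries thus lay above all 14 others of the study. In male maternal libraries 4.69% and 4.52% of counts lay on gene IDs without a symbol. In male dual libraries 7.16% and 17.8% did, and in the female ones 1.73% to 2.14%. Protein-coding genes took 92.4% and 92.6% in male maternal but 88.95% and 77.8% in male dual libraries. Mitochondrial ribosomal RNA took 0.778% and 0.736% in male maternal and 1.405% and 2.26% in male dual libraries. It took 0.00886% to 0.0325% in the female ones, so it went with sex too. The part of these shares in the results was not tested apart from the fits named below.

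**Figure D1:**
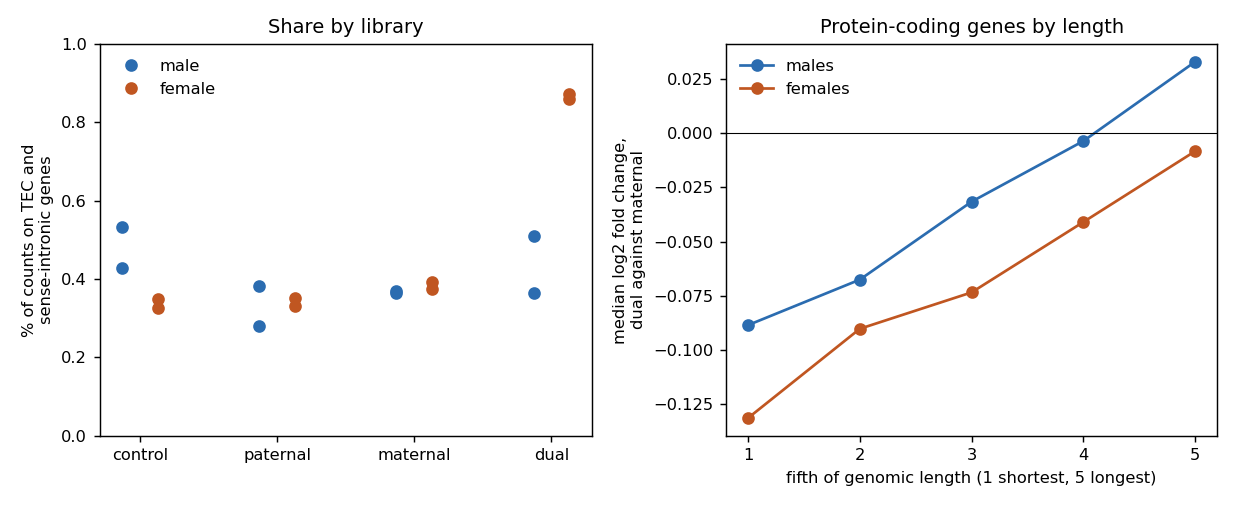
Left, percentage of counts on TEC and sense-intronic genes in each of the 16 libraries (points), by exposure and sex. Right, median log2 fold change, dual against maternal, of protein-coding genes in 5 groups of about equal size by genomic length, for males and females. The 2 female dual libraries stand at 0.872% and 0.86%, and the medians go up with length in both sexes.

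Over both sexes, 1241 of 21543 genes tested differed between dual and maternal exposure at an adjusted p of at most 0.05, which is 5.76% of them. Of these 952 (4.42%) were higher and 289 (1.34%) were lower under dual exposure. The genes that rose were mostly non-coding and the genes that fell were nearly all protein-coding. TEC and sense-intronic genes made up 568 of the rises, antisense genes 107, processed pseudogenes 52, long intergenic RNAs 34 and small nucleolar or Cajal body RNAs 12. Processed pseudogenes (1222 tested) and long intergenic RNAs (764 tested) thus rose at shares near the 4.42% of all genes. Protein-coding genes made up 128 of the rises and 284 of the falls, or 0.853% and 1.89% of the 15009 protein-coding genes tested. The rises had a median log2 fold change of 1.17 and the falls one of -0.29. Fitted on protein-coding genes alone, 42 genes passed (34 higher, 8 lower), all of them among the 1241. With the TEC and sense-intronic share of each library as a covariate, 0 passed, and the covariate cannot be told apart from dual exposure in females. In a fit of the 8 libraries alone with sex as a block, 1802 passed, 1254 higher and 548 lower, and counts given below for the 8 libraries alone are from that fit. Leaving out 1 library changed the count. It was 389 without male dual replicate 1, 620 and 781 without male maternal replicate 1 and 2, 608 and 530 without female maternal replicate 1 and 2, and 820 and 562 without female dual replicate 1 and 2. It was 1994 and 2100 without female control replicate 1 and 2, which belong to neither exposure group compared here. Protein-coding falls among these ranged from 32 without male dual replicate 1 to 857 without female control replicate 2.

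Of 2041 TEC and sense-intronic genes tested, 568 rose and 1 fell. Their median log2 fold change was 0.83, against 0.00 over all genes tested and -0.04 over protein-coding genes. The median was 1.24 in females and 0.44 in males. Antisense genes had a median of 0.48 and processed pseudogenes one of 0.37. Of the 568 TEC and sense-intronic genes that rose, 526 (92.6%) lay within the span of a protein-coding gene, 483 of them on the same strand. Among all 2041 tested genes of these classes 81.4% lay so. The 278 protein-coding hosts of these rising genes had a median log2 fold change of 0.035, and 17 of them rose and 0 fell. Among the 932 hosts of all tested genes of these classes, 28 rose and 6 fell. Both shares of rises were above the 0.853% of all protein-coding genes tested that rose. The median host therefore stayed near 0 on the log2 scale, though hosts rose more often than protein-coding genes in general. The units inside had been chosen for their rise.

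Svet1, a transcript of the subventricular zone annotated as TEC, lies on the same strand within Unc5d, a netrin receptor gene of upper-layer neurons. It had 3.29 and 4.30 CPM in male maternal, 4.12 and 3.77 CPM in female maternal, 8.76 and 4.90 CPM in male dual and 21.4 and 13.9 CPM in female dual libraries. All 4 dual libraries lay above all 4 maternal ones, the male dual replicate 2 library only just. The log2 fold change was 1.51 (SE 0.21, adjusted p = 0.000667), while that of Unc5d was 0.05 (adjusted p = 0.728). Nrg3os, antisense within the neuregulin gene Nrg3, went from 1.77 and 1.73 CPM in male and 2.09 and 1.31 CPM in female maternal libraries to 3.07 and 2.99 CPM in male and 5.21 and 8.41 CPM in female dual libraries. Its log2 fold change was 1.39 (SE 0.24, adjusted p = 0.00239). Nrg3 itself rose by 0.26 on the log2 scale (adjusted p = 0.0408). Slain1os, antisense within Slain1, had 2.78 to 3.42 CPM in the maternal and 5.51 to 7.13 CPM in the dual libraries, with no overlap, and a log2 fold change of 1.02 that was alike in size in males (0.91) and females (1.14). Slain1, which encodes a microtubule-associated protein, had a log2 fold change of 0.00 (adjusted p = 0.982).

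Some protein-coding genes that rose most also lie inside longer genes, on the opposite strand. Lrtm1, a leucine-rich repeat membrane protein gene within the calcium channel subunit gene Cacna2d3, had 1.71 and 1.97 CPM in male maternal, 1.38 and 1.66 CPM in female maternal, 4.03 and 3.52 CPM in male dual and 4.62 and 5.31 CPM in female dual libraries. The groups did not overlap, and the log2 fold change was 1.37 (SE 0.23, adjusted p = 0.00258). Gpr82, an orphan receptor gene within Cask, rose by 1.06 on the log2 scale. Cask had a log2 fold change of -0.00, which did not pass. C79798, antisense within Pbx3, rose by 1.14 and its groups overlapped, with male dual replicate 2 at 1.91 CPM against 2.98 CPM in male maternal replicate 2.

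Some small structured RNAs were among the rises. Of 6 miscellaneous small RNAs tested 2 rose, both of them Y RNAs, and of 62 small nuclear RNAs 3 rose, with 0 falls in both classes and 0 calls in males alone. The share of small nuclear RNAs that rose was near the 4.42% of all genes tested. Rny3 and Rny1, both on chromosome 6, encode Y RNAs, and their transcripts are shown because they were 2 of the 3 largest rises by the rule for named genes. Capitals mark runs of at least 8 bases that both share, 3 runs with 28 bases in all. The sequences are the GENCODE M21 transcripts.
Rny3: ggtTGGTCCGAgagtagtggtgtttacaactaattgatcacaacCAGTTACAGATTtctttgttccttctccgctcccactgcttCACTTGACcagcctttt
Rny1: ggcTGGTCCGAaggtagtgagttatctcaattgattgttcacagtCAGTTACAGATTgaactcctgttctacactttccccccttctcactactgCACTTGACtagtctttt

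Rny3 had 44.8 and 32.5 CPM in male maternal, 6.68 and 9.29 CPM in female maternal, 54.1 and 81.3 CPM in male dual and 62.2 and 73.4 CPM in female dual libraries. Male and female maternal libraries stood apart, and both sexes reached a similar level under dual exposure. The log2 fold change was 1.95 over both sexes (SE 0.22, adjusted p = 0.000192), 0.81 in males (SE 0.30, adjusted p = 0.587) and 3.08 in females (SE 0.33, adjusted p = 7.45e-05). Rny1 had 14.2 and 13.1 CPM in male maternal, 3.41 and 3.91 CPM in female maternal, 19.1 and 36.9 CPM in male dual and 13.3 and 15.97 CPM in female dual libraries. Within each sex its dual libraries lay above its maternal ones, and its log2 fold change was 1.51 (SE 0.27, adjusted p = 0.00346). Female control libraries held 5.13 and 9.55 CPM of Rny3 and male controls 19.3 and 40.6 CPM. The sexes, and with them the depths and the mitochondrial ribosomal RNA shares, thus differed without exposure too.

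Rnu12 on chromosome 15 encodes the U12 RNA of the minor spliceosome, which removes a rare class of introns. Snord15a on chromosome 7 lies within the ribosomal protein gene Rps3 and is a C/D box small nucleolar RNA. Their transcripts are shown as the spliceosomal and nucleolar examples among the largest rises. Capitals mark GTAAGGA in Rnu12, which pairs with the branch site, and the TGATGA and CTGA boxes in Snord15a.
Rnu12: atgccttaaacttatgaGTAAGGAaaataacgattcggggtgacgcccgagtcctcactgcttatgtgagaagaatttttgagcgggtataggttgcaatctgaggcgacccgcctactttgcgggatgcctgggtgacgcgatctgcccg
Snord15a: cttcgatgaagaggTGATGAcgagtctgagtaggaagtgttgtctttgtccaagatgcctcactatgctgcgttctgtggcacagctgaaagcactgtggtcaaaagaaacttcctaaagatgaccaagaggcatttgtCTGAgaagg

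Rnu12 had 4.88 and 8.95 CPM in male maternal, 1.29 and 2.54 CPM in female maternal, 12.03 and 11.3 CPM in male dual and 7.68 and 14.0 CPM in female dual libraries, a log2 fold change of 1.62 (SE 0.30, adjusted p = 0.0044). The groups overlapped across the sexes and not within a sex. Snord15a had 4.03 and 3.10 CPM in male maternal, 1.76 and 2.48 CPM in female maternal, 4.99 and 7.35 CPM in male dual and 5.34 and 5.95 CPM in female dual libraries, a log2 fold change of 1.096 (SE 0.26, adjusted p = 0.0209). Its host Rps3 went the other way by value, at -0.23 (adjusted p = 0.0604). Scarna6, within the autophagy gene Atg16l1, rose by 0.99 and Snord17, within Snx5, by 0.95. Of 128 small nucleolar and Cajal body RNAs tested, 12 rose and 0 fell, with a median log2 fold change of 0.53 (0.89 in females and 0.25 in males). Of all genes tested 4.42% rose. The 12 became 7 without male maternal replicate 2 or female maternal replicate 1, and 6 without female dual replicate 2. The 17 genes tested among hosts of such RNAs had 0 calls and a median of -0.05.

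**Figure D2:**
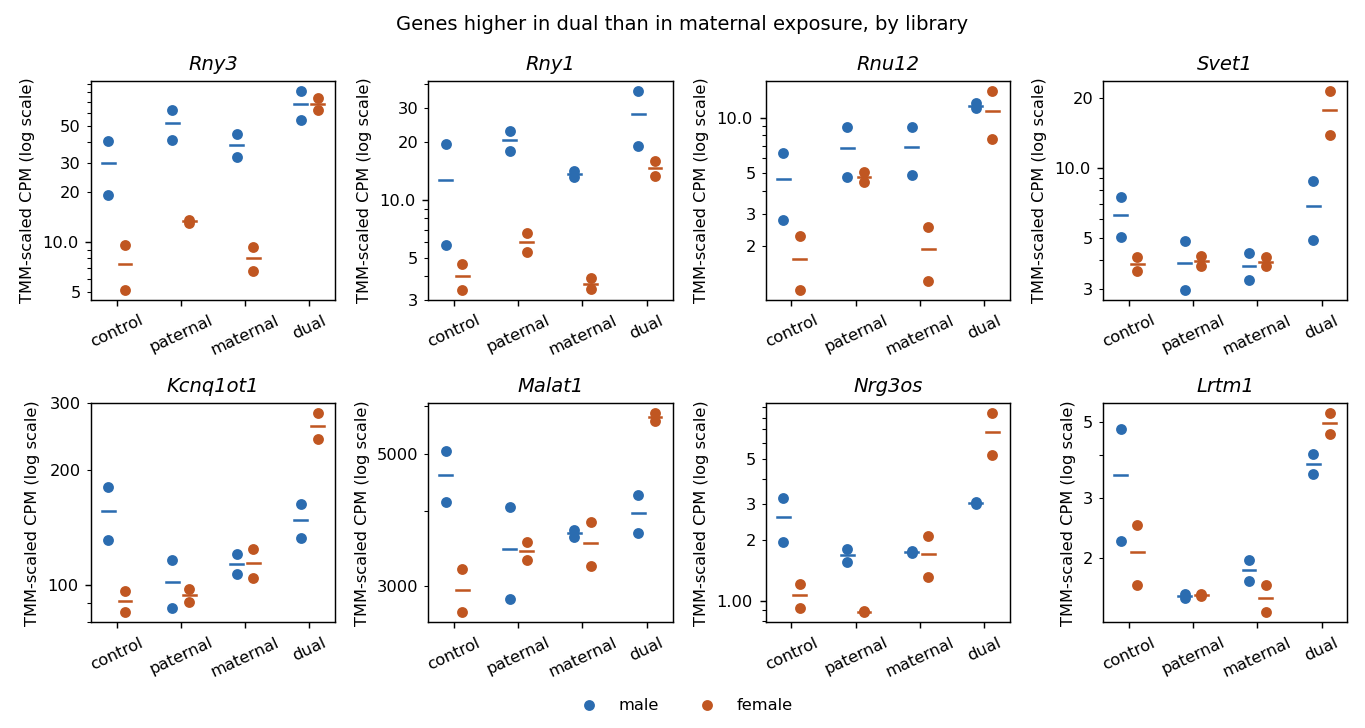
TMM-scaled CPM (log scale) of 8 genes that were higher under dual than under maternal exposure, in each of the 16 libraries, by exposure. Points are libraries, short lines the mean of the 2 libraries of a sex. Rny3 in female libraries goes from 6.68 and 9.29 CPM (maternal) to 62.2 and 73.4 CPM (dual), and Malat1 separates the female but not the male libraries.

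Among 14 long RNAs that stay in the nucleus, 5 rose and 0 fell, with a median log2 fold change of 0.42 (0.67 in females, 0.14 in males). Of all genes tested 4.42% rose. The 5 became 2 without male maternal replicate 2, male dual replicate 1, female maternal replicate 2 or female dual replicate 2, 3 without male or female maternal replicate 1, and 9 without either female control or in the 8 libraries alone. In males alone 0 passed. Under the intronic-share covariate 0 passed, the list median was 0.01 and the value of Malat1 turned to -0.17. Kcnq1ot1, the imprinted antisense RNA that silences neighbouring genes on the paternal chromosome, had 121 and 107 CPM in male maternal, 105 and 125 CPM in female maternal, 163 and 133 CPM in male dual and 241 and 283 CPM in female dual libraries. The groups did not overlap, and the log2 fold change was 0.79 (SE 0.11, adjusted p = 0.000667). Male controls, at 131 and 181 CPM, reached the level of the male dual libraries. Snhg14, the long host transcript of the imprinted snoRNA clusters beside Ube3a, rose by 0.45 (adjusted p = 0.0033), Rian by 0.28 (adjusted p = 0.0231) and Rmst, which binds Sox2, by 0.57 (adjusted p = 0.0286). Malat1, an abundant RNA of nuclear speckles, had 3725 and 3623 CPM in male maternal, 3842 and 3237 CPM in female maternal, 4263 and 3681 CPM in male dual and 5672 and 5847 CPM in female dual libraries. Its rise of 0.41 over both sexes (adjusted p = 0.0205) was 0.11 in males (adjusted p = 0.878) and 0.70 in females (adjusted p = 0.00557). Xist, the RNA that coats the inactive X chromosome, had 816 and 731 CPM in female maternal and 1641 and 1671 CPM in female dual libraries. That was a log2 fold change of 1.099 within females (SE 0.16, adjusted p = 0.000571).

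Among 35 regulators of splicing, 6 rose and 0 fell, with a list median of 0.07, where 0.853% of all protein-coding genes tested rose. On protein-coding genes alone 2 rose. None of the 6 passed with the covariate, under which Nktr (-0.0239), Clk1 (-0.0458) and Pnisr (-0.0914) changed direction. The 6 became 2 or 3 when any one of the 8 libraries other than female dual replicate 1 was left out. Rbm25, which binds exonic enhancers, had 214 and 213 CPM in male maternal, 211 and 220 CPM in female maternal, 259 and 250.0 CPM in male dual and 262 and 261 CPM in female dual libraries. These groups did not overlap, and the log2 fold change of 0.27 (SE 0.05, adjusted p = 0.00623) was 0.25 in males and 0.28 in females. Nktr rose by 0.38 and Luc7l2, a U1-associated protein gene, by 0.28. Clk1, a kinase of splicing factors, rose by 0.29, Luc7l3 by 0.21 and Pnisr by 0.25.

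Some lists of neuronal surface genes held 1 to 3 rises, where 0.853% of all protein-coding genes tested rose. Of 55 clustered protocadherins, adhesion proteins that give neurons individual identities, 3 rose and 0 fell. Pcdhgb5 went from 11.9 and 12.5 CPM in male and 14.2 and 15.1 CPM in female maternal libraries to 15.8 and 15.9 CPM in male and 28.0 and 24.2 CPM in female dual libraries. That is a log2 fold change of 0.60 (SE 0.10, adjusted p = 0.00178). Pcdhgb4 rose by 0.52 and Pcdha8 by 0.79. These genes share exons with their cluster neighbours. Of 22 glutamate receptor genes, the kainate receptor gene Grik2 and the AMPA receptor gene Gria2 rose, each by 0.29, and 0 fell. Gria2 turned to -0.0478 with the covariate. Nrxn3, a presynaptic adhesion gene, rose by 0.27 and was the 1 call among 25 synaptic adhesion and scaffold genes. Single rises in other lists were Zbtb20, a factor of hippocampal neurons (0.32), the imprinted Sgce (0.28), and Fdps of cholesterol synthesis (0.67).

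Some genes of blood and of blood vessels fell. Hbb-bs, an adult beta globin, had 606 and 501 CPM in male maternal, 369 and 323 CPM in female maternal, 319 and 308 CPM in male dual and 169 and 181 CPM in female dual libraries. The highest dual library lay just below the lowest maternal one. The log2 fold change was -0.90 (SE 0.17, adjusted p = 0.00583), with -0.82 in males and -0.98 in females. Hba-a1 fell by 0.68 (adjusted p = 0.0417) and Hbb-bt by 0.67 (adjusted p = 0.0481). Of 9 red blood cell genes tested, these 3 fell and 0 rose, with a list median of -0.67. Of all protein-coding genes tested 1.89% fell. The 3 became 1 without any one of the 8 libraries or of the male controls, and 5 without either male paternal library or in the 8 libraries alone. Of 27 alternatives, Hbb-bt lost its call in 17, Hba-a1 in 13 and Hbb-bs in 2. Alas2, the first enzyme of heme synthesis in red cells, had a log2 fold change of -0.14 (adjusted p = 0.706).

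Of 16 endothelial and pericyte genes, 5 fell and 0 rose, beside the 1.89% of all protein-coding genes tested that fell. The list median was -0.40, with -0.43 in females and -0.31 in males, and its summed level was 548 to 606 CPM in maternal and 401.5 to 517 CPM in dual libraries. Pecam1, an adhesion molecule of endothelial junctions, had 25.9 and 26.8 CPM in male maternal, 26.6 and 26.4 CPM in female maternal, 20.5 and 20.1 CPM in male dual and 17.7 and 14.6 CPM in female dual libraries. Its log2 fold change was -0.54 (SE 0.09, adjusted p = 0.0028). Esam fell by 0.60, the cadherin gene Cdh5 by 0.49, the angiopoietin receptor gene Tek by 0.49 and the VEGF receptor gene Kdr by 0.39. Cldn5, of endothelial tight junctions, had a log2 fold change of -0.51 (adjusted p = 0.0514), and the pericyte gene Pdgfrb one of -0.28 (adjusted p = 0.0628). In bulk tissue, fewer cells of a type and less of its RNA per cell cannot be told apart. Fitted on protein-coding genes alone, 1 endothelial gene and 0 red blood cell genes passed, with list medians of -0.35 and -0.63. The 5 endothelial falls became 2 without male maternal replicate 1, either female maternal library or female dual replicate 2, 3 without either male dual library, 10 without either female control and 9 in the 8 libraries alone. Kdr lost its call in 14 of 27 alternatives and Pecam1 in 1.

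The falls of largest size that the rule names were not tested as a group. Acvrl1, the endothelial ALK1 receptor, had 13.2 and 9.31 CPM in male maternal, 9.06 and 11.5 CPM in female maternal, 6.97 and 7.27 CPM in male dual and 5.66 and 5.06 CPM in female dual libraries. It fell by 0.80 on the log2 scale (SE 0.19, adjusted p = 0.0189). Aplnr, the apelin receptor of growing vessels, fell by 0.76, Mmrn1, a multimerin of platelets and endothelium, by 0.87, and Lsr, of tricellular junctions in the blood-brain barrier, by 0.77. Il13ra1, a subunit of the interleukin-13 receptor, had 9.64 and 8.59 CPM in male maternal, 8.47 and 7.71 CPM in female maternal, 4.61 and 5.21 CPM in male dual and 5.37 and 4.71 CPM in female dual libraries. Its fall of 0.79 (SE 0.15, adjusted p = 0.00467) was 0.90 in males and 0.68 in females. Cyba, a subunit of NADPH oxidase, fell by 0.82, the lysosomal protease gene Ctsh by 0.77, the GTPase gene Gimap6 by 0.76, the Toll-like receptor adaptor gene Myd88 by 0.76, the metalloproteinase gene Mmp25 by 0.73 and C1qtnf6 by 0.73. The last 6 had means of 1.74 to 3.84 CPM in dual libraries. Many of these calls were lost under the 27 alternatives: Myd88 in 19, Ctsh in 16, C1qtnf6 in 13, Mmrn1 in 12, Lsr in 11, Mmp25 in 9, Cyba and Gimap6 in 7, Acvrl1 in 6, Aplnr in 3 and Il13ra1 in 1. In each of these settings the value stayed below 0.

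Microglial and meningeal lists had negative medians and 0 calls. The 16 genes of microglia and border macrophages had a median of -0.28, at -0.46 in females and -0.04 in males. Csf1r, the growth factor receptor of microglia, had a log2 fold change of -0.24 (adjusted p = 0.372). The 15 meningeal and fibroblast genes had a median of -0.53, with 14 below 0, where 9296 of all 15009 protein-coding genes tested were below 0. Their summed level was 595 to 923 CPM in maternal and 427 to 632 CPM in dual libraries. Col3a1, a fibrillar collagen gene, had 198 and 162 CPM in male maternal, 134 and 120.4 CPM in female maternal, 108 and 114 CPM in male dual and 72.2 and 58.1 CPM in female dual libraries, a log2 fold change of -0.83 (adjusted p = 0.0839). The groups did not overlap for Col3a1, though it did not pass across all genes. The share of all genes tested whose groups do not overlap was not counted, here or for the other genes named. Without female control replicate 1 or 2, 11 meningeal genes and 1 microglial gene fell. In the 8 libraries alone with sex as a block, 10 and 1 did, and with no filter on low counts 10 and 1. The covariate left 0 falls and turned the microglial median to 0.0684.

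**Figure D3:**
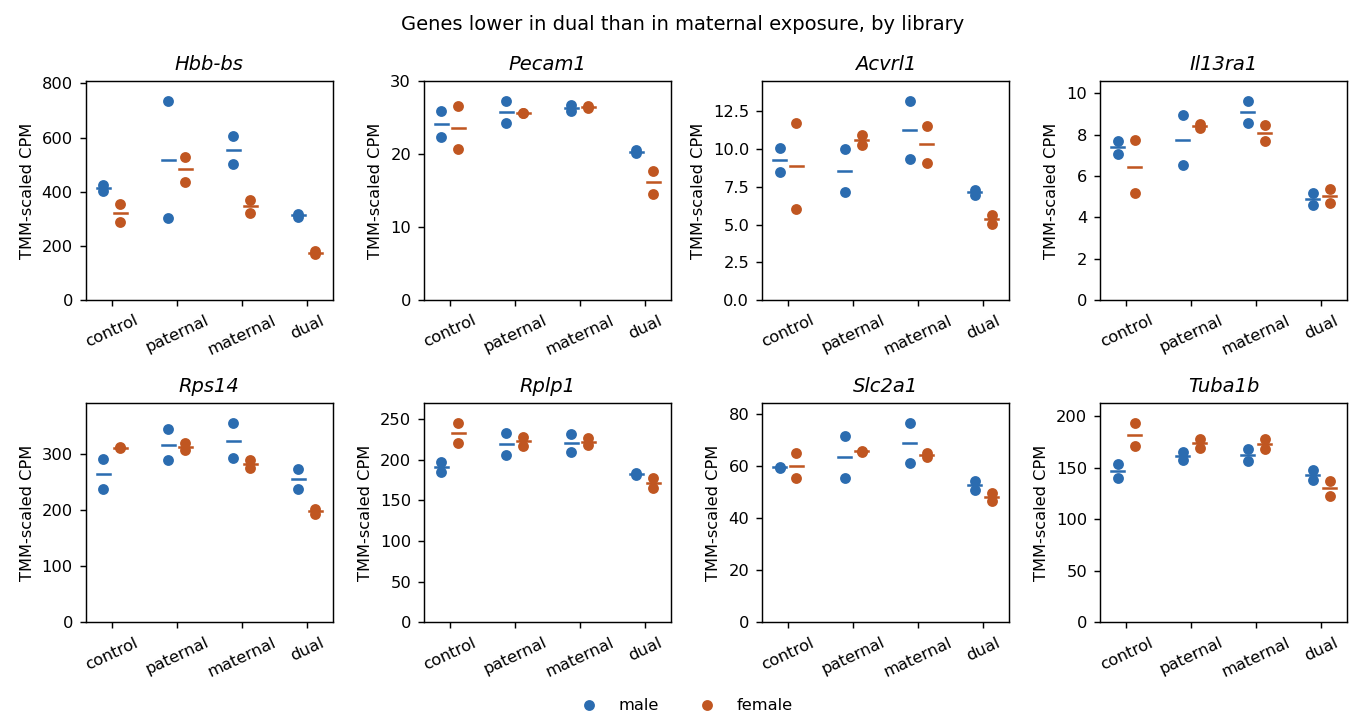
TMM-scaled CPM of 8 genes that were lower under dual than under maternal exposure, in each of the 16 libraries, by exposure. Points are libraries and short lines the mean of the 2 libraries of a sex. The 4 dual libraries of Pecam1 lie between 14.6 and 20.5 CPM, and the 4 maternal ones between 25.9 and 26.8 CPM.

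Cytoplasmic ribosomal protein genes made up the largest single group among the falls of these lists. Of 80 tested, 31 fell and 0 rose, and 73 had a log2 fold change below 0. Of all 15009 protein-coding genes tested 1.89% fell and 9296 had a value below 0. The list median was -0.15, with -0.17 in females and -0.14 in males. Summed over the list, the level was 17460 to 20380 CPM in maternal and 15010 to 18130 CPM in dual libraries. Rps14 of the small subunit had 354 and 292 CPM in male maternal, 275 and 289 CPM in female maternal, 237 and 273 CPM in male dual and 202 and 193 CPM in female dual libraries. The dual libraries lay below all maternal ones, though male dual replicate 2 lay close to the lowest, and the log2 fold change was -0.43 (SE 0.08, adjusted p = 0.00357). Rplp1 of the stalk fell by 0.32 (SE 0.06, adjusted p = 0.00307), Rpl10a by 0.30 and Rpl37 by 0.40. Fitted on protein-coding genes alone, 4 ribosomal protein genes passed with a list median of -0.11. With the intronic share as a covariate, 0 passed and the median was 0.07. The number that fell was 6 without male dual replicate 1, 9 without male maternal replicate 1, 11 without female dual replicate 2, 12 without female maternal replicate 2 and 18 without female maternal replicate 1.

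Of all protein-coding genes tested 1.89% fell and 0.853% rose, which is the background for the lists of this paragraph. Of 78 nuclear-encoded subunits of oxidative phosphorylation, 7 fell and 1 rose, with a median of -0.12. The 7 became 0 without male dual replicate 1, 1 without female dual replicate 2, 2 without male or female maternal replicate 1, 3 and 4 without female and male maternal replicate 2, and 13 and 20 without female control replicate 1 and 2. It was 11 in the 8 libraries alone and 0 on protein-coding genes alone. Under the covariate 0 fell and the median turned to 0.0352. Atp5g2, a subunit of the ATP synthase ring, had 39.5 and 35.4 CPM in male maternal, 40.3 and 39.3 CPM in female maternal, 29.4 and 33.1 CPM in male dual and 29.1 and 25.6 CPM in female dual libraries. It fell by 0.40 (SE 0.08, adjusted p = 0.00749). Atp5b fell by 0.22, Atp5d by 0.26, Uqcrc1 of complex III by 0.22 and Ndufa2 of complex I by 0.35. Of 77 mitochondrial ribosomal protein genes, Mrpl52 fell by 0.41, Mrps12 by 0.39 and Mrpl34 by 0.35, and 0 rose. Of 27 alternatives, Mrpl34 lost its call in 13 and changed direction in 1, while Mrps12 lost its call in 9 and Mrpl52 in 3. The 13 mRNAs encoded in the mitochondrial genome had a median of 0.33, with 12 above 0, and 2 of them rose. The 2 became 8 without male maternal replicate 1, 5 without either female control, 1 without either male paternal library, female maternal replicate 1 or female dual replicate 1, and 0 without any other of the 8 libraries. With the covariate 0 rose and the median was 0.40. mt-Nd6, on the light strand, had 316 and 222 CPM in male maternal, 122 and 145 CPM in female maternal, 349 and 339 CPM in male dual and 203 and 205 CPM in female dual libraries, a rise of 0.48 (adjusted p = 0.0449). mt-Nd3 rose by 0.87 (adjusted p = 0.0203) from 1.49 to 2.59 CPM in maternal to 3.12 to 4.21 CPM in dual libraries.

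Single falls were found in other lists, beside the 1.89% of all protein-coding genes tested that fell. Of 22 genes of tubulin and migration 3 fell, among them the tubulins Tuba1b by 0.30 and Tuba1a by 0.25. Tuba1a had 3338 and 3298 CPM in male maternal, 3435 and 3715 CPM in female maternal, 3104 and 3157 CPM in male dual and 2724 and 2624 CPM in female dual libraries. The proteasome genes Psmb5 and Psmb4 fell by 0.33 and 0.25, the 2 calls among 36. Lsm4 of the U6 snRNP fell by 0.41, the 1 call among 32 Sm, Lsm and snRNP genes. Slc2a1, the glucose transporter of the blood-brain barrier, had 76.5 and 61.3 CPM in male maternal, 63.6 and 65.1 CPM in female maternal, 50.9 and 54.3 CPM in male dual and 49.7 and 46.5 CPM in female dual libraries. It fell by 0.41 (SE 0.08, adjusted p = 0.00857), and with Mif (0.29) it was one of 2 falls among 21 glycolysis and hypoxia genes.

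Genomic length ran along with the direction, and its part in the results was not tested. Protein-coding genes were split into 5 groups of about equal size by genomic length. In the shortest group 133 fell and 11 rose, with a median of -0.11. In the longest group 22 fell and 56 rose, with a median of 0.01. The medians of the groups between were -0.08, -0.05 and -0.02. The step was present in each sex: medians went from -0.09 to 0.03 in males and from -0.13 to -0.01 in females.

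Developmental and stress lists held single falls too. Since 1.89% of all protein-coding genes tested fell, 1 fall in a list of 10 to 33 genes is not a result about the list. Reln, the extracellular guide of neuronal migration made by Cajal-Retzius cells, had 662 and 549 CPM in male maternal, 524 and 555 CPM in female maternal, 522 and 513 CPM in male dual and 437 and 475 CPM in female dual libraries. It fell by 0.23 (SE 0.06, adjusted p = 0.0226), the 1 fall among 10 Cajal-Retzius genes. Notch3, the receptor of mural cells and progenitors, fell by 0.33, the Wnt co-receptor gene Lrp5 by 0.38 and the semaphorin receptor gene Plxnd1, known from vessels and axons, by 0.31. Aldh3a2, a fatty aldehyde dehydrogenase, fell by 0.29 and was the 1 call among 14 genes of alcohol and aldehyde metabolism. Gpx1, an antioxidant peroxidase, fell by 0.30 and the pro-apoptotic Bak1 by 0.47. The Notch, Wnt and axon guidance lists held 21, 26 and 33 tested genes, and the antioxidant and apoptosis lists 19 each, with 1 fall in each. Of 27 alternatives, Aldh3a2 lost its call in 13, Notch3 in 8, Reln, Lrp5 and Gpx1 in 6, Plxnd1 in 5 and Bak1 in 4.

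The genes that define the cortical cell types gave 0 calls in either direction. This held for 18 radial glia genes, 16 of intermediate progenitors, 14 of deep-layer neurons, 13 of upper-layer neurons, 18 of GABAergic interneurons and 12 of the oligodendrocyte lineage. Their list medians lay between -0.10 and 0.005. Tbr1 had a log2 fold change of -0.08 (SE 0.07) and Pax6 one of 0.09 (SE 0.14). The 31 genes of DNA replication and the 24 of mitosis had 0 calls too, with medians of -0.15 and -0.10. Histone genes had 0 calls, a median of -0.32 and 56 of 59 values below 0, where 9296 of all 15009 protein-coding genes tested were below 0. Without female control replicate 1 or 2, 24 or 25 histone genes fell, without male maternal replicate 2 or female dual replicate 1, 6 fell, and without male dual replicate 2, 2 fell. In the 8 libraries alone with sex as a block 10 fell, with no filter 37 and with the replicate block 4. The covariate left 0 falls and turned the median to 0.067. Their summed level ranged over 4006 to 5725 CPM in maternal and 2924 to 4504 CPM in dual libraries.

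**Figure D4:**
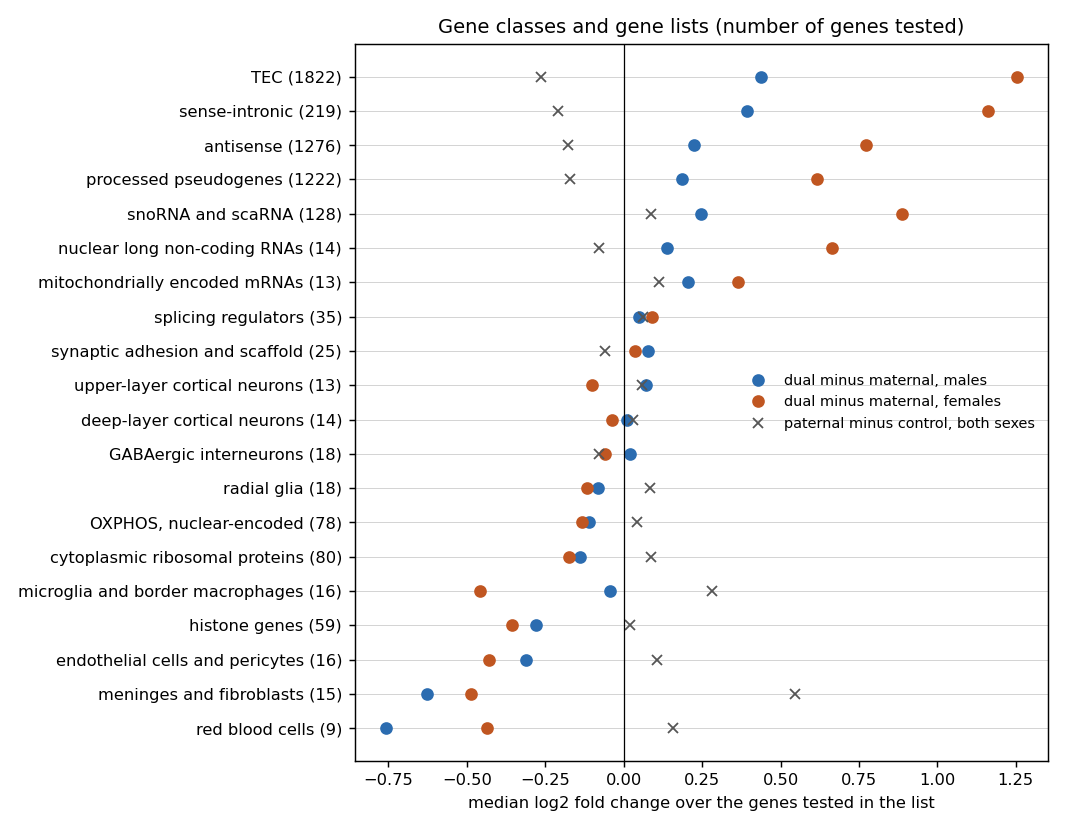
Median log2 fold change over the tested genes of each class or list, dual minus maternal in males and in females (points) and paternal minus control over both sexes (crosses). Intronic, antisense and small RNA classes lie above 0 and blood, meninges and vessel lists below 0 in both sexes, with TEC genes at 0.44 in males and 1.25 in females.

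In males alone 0 genes passed edgeR's test (0% of those tested). Before adjustment 1683 had a p under 0.05, and DESeq2 called 2. The genes of smallest p that were higher included Dnah17, an axonemal dynein gene, at 3.84 and 3.22 CPM in maternal and 8.19 and 6.28 CPM in dual males, a log2 fold change of 1.04 (adjusted p = 0.475). Ntrk3, the receptor of neurotrophin-3, was next to it at 0.29 (adjusted p = 0.475). Among the lowest p in the other direction was Mrpl52, with 23.6 and 23.5 CPM in maternal and 14.0 and 15.3 CPM in dual males, a log2 fold change of -0.69 (adjusted p = 0.441). Foxq1, a forkhead factor of endothelium, had -1.06 (adjusted p = 0.475).

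In females alone 1374 genes (6.38%) passed, 1126 higher (5.23%) and 248 lower (1.15%). Rny3, Kcnq1ot1 and Svet1 had the smallest p among the rises that the rule names, at 3.08, 1.19 and 2.16. Srrm4os, a non-coding neighbour of the neuronal splicing factor gene Srrm4, went from 10.8 and 12.3 CPM to 24.7 and 26.0 CPM, a log2 fold change of 1.13 (adjusted p = 0.000305). Khdrbs2, which encodes a neuronal splicing regulator, rose by 0.80 from 27.0 and 27.2 CPM to 45.4 and 49.1 CPM (adjusted p = 0.000482). Among the falls were Rpl37 (-0.58), Pecam1 (-0.71), Samd1 (-0.44) and the cell-cycle ubiquitin ligase subunit gene Anapc11 (-0.51). With the intronic share as a covariate 0 genes passed in females, and on protein-coding genes alone 47. Leaving out 1 of the 4 female libraries left 325 or 283 calls without maternal replicate 1 or 2, and 586 or 477 without dual replicate 1 or 2.

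The difference between the sexes was tested directly, and 0 genes passed in edgeR (0%). Before adjustment 1659 had a p under 0.05, and DESeq2 called 37. Khdrbs2 came closest among the named genes. It had 32.4 and 28.5 CPM in male maternal and 28.1 and 25.1 CPM in male dual libraries, so its female effect exceeded its male effect by 0.99 on the log2 scale (SE 0.16, adjusted p = 0.216). For Rny3 the excess was 2.28 (SE 0.44, adjusted p = 0.216) and for Bc1, a dendritic small RNA, it was 1.32 (SE 0.27, adjusted p = 0.222). Bc1 had 62.2 and 54.1 CPM in male maternal but 2.0 and 1.64 CPM in female maternal libraries. Sex went with depth and with the mitochondrial ribosomal RNA share, and their part in this gap was not tested. Lrrc8b, a volume-regulated anion channel subunit gene, had a lower effect in females, by -0.46 (adjusted p = 0.255). Of the 952 genes that rose over both sexes, 942 had the same sign in each sex, with medians of 1.54 in females and 0.71 in males. Of the 289 that fell, 287 did, with medians of -0.34 and -0.23. The rule of equal weight over the sexes bears on these signs, since each sex is part of the call.

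**Figure D5:**
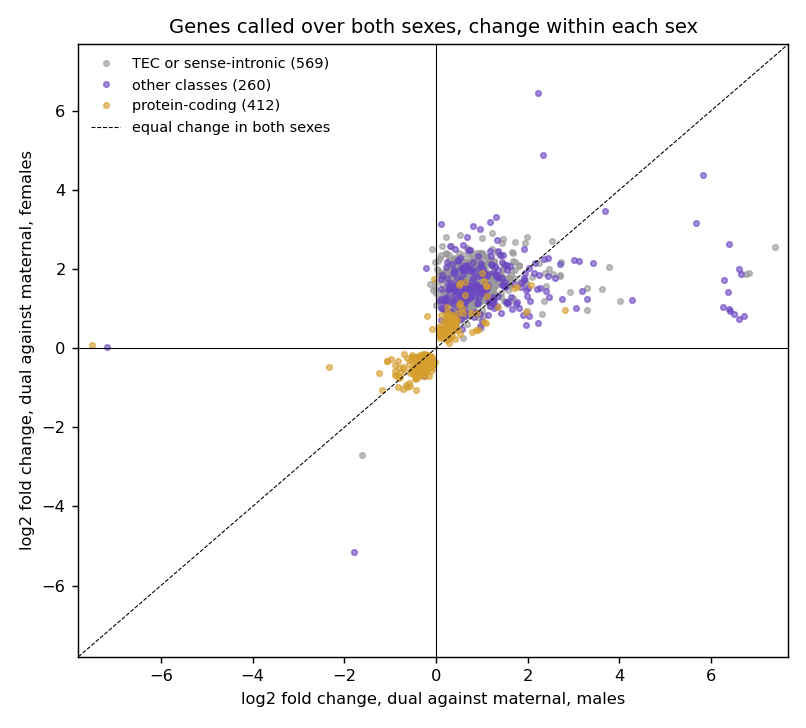
Log2 fold change of dual against maternal exposure in males (x axis) and females (y axis) for the 1241 genes called over both sexes, coloured by gene class. The rises have medians of 1.54 in females and 0.71 in males, so most lie above the dashed line of equal change, and the falls lie nearer to it. Points beyond 5 on either axis are genes with a mean log2 CPM below -1.

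Whether the step from maternal to dual exposure equals the step from control to paternal exposure was tested as a difference of the 2 differences. In this test 907 genes passed (4.21%), 751 with a higher step under maternal exposure (3.49%) and 156 with a lower one (0.724%). The count was 368 without male control replicate 2, 468 without male paternal replicate 1, 426 without male dual replicate 1 and 536 without female paternal replicate 1. It was 519 and 527 without female maternal replicate 1 and 2, 522 without female dual replicate 2 and 2169 without female control replicate 1. With the intronic share as a covariate, 0 passed. D10Wsu102e went from 307 and 265 CPM in male and 304 and 326 CPM in female maternal libraries to 396 and 327 CPM and 471 and 478 CPM under dual exposure. From control to paternal exposure it went from 308 and 370 CPM to 207 and 279 CPM in males and from 287 and 295 CPM to 234.3 and 221 CPM in females. The difference of the steps was 0.88 (SE 0.12, adjusted p = 0.000971). The paternal step alone was -0.42 and did not pass (adjusted p = 0.32). Lrtm1 had the difference 2.16 (adjusted p = 0.00191), Kcnq1ot1 1.07 (adjusted p = 0.00111), Pcdhgb5 0.98 (adjusted p = 0.000981) and Lrrc7, a postsynaptic scaffold gene, 0.65 (adjusted p = 0.000981).

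In the other direction, Hbb-bs had a difference of -1.36 (SE 0.25, adjusted p = 0.00565) and Shc1, a signalling adaptor, one of -0.83 (adjusted p = 0.005). Igfbp2, a binder of insulin-like growth factors, had -0.56 (adjusted p = 0.00603). H19, an imprinted maternal RNA, had -0.98 (adjusted p = 0.007): it had 144 to 221 CPM in male and 125 to 142 CPM in female maternal libraries, 126 to 132 CPM and 101.4 to 102.4 CPM in dual, 132 to 138 CPM and 71.3 to 99.7 CPM in control and 152 to 165 CPM and 122 to 181 CPM in paternal libraries. Among 80 ribosomal protein genes 25 passed, all lower, with a median of -0.25, and their paternal minus control median was 0.09. Among 15 meningeal genes, Dcn (-1.35), Foxc1 (-0.93) and Ogn (-1.19) passed, and the list's paternal minus control median was 0.54. In female control replicate 1 the meningeal list summed to 290.0 CPM, below every other library of the study.

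The 2 comparisons share no library, and the genes called under dual against maternal exposure had mostly opposite signs in paternal against control. No gene passed in paternal against control itself, where edgeR's adjusted p was 0.32 for both Bc1 and D10Wsu102e. The signs are thus those of values and not of genes called in paternal against control. Of the 952 rises, 780 (81.9%) were below 0 there, with a median of -0.27, against 52.5% below 0 over all genes tested. Of the 289 falls, 185 (64.0%) were above 0, against 47.5% over all genes. In males the intronic share ran along with this: it was 0.429% and 0.534% in control and 0.28% and 0.381% in paternal libraries. In females it did not fall from control to paternal exposure. It was 0.325% and 0.349% in female control and 0.331% and 0.352% in female paternal libraries. Its part in the opposite signs was not tested.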

How the data were processed

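Total RNA of 16 cortex samples was sequenced after preparation with an Illumina total RNA kit, per the labels. The authors deposited raw counts per gene and library. They used Trimmomatic, STAR and featureCounts on GRCm39 (mm39), per the submitters' processing notes. Versions, annotation, strand and multiple mapping were not given in the sources used here. Each table held 55359 gene IDs, of which 52083 matched a symbol in GENCODE M21. That reference is on another build (GRCm38), so it gave names, classes, gene spans and transcripts, and no coordinates are given.

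Groups came from the labels. Counts were analysed in R 4.3.3 with edgeR 4.0.16: filterByExpr (minimum count 10, minimum total 15) left 21543 genes, 205 of them without a symbol. TMM scaling and a quasi-likelihood fit (glmQLFit, glmQLFTest, two-sided) of 8 group means over all libraries gave 8 residual degrees of freedom. Each exposure contrast is the mean of its male and its female contrast. Adjusted p-values are Benjamini-Hochberg values over all genes tested, with a threshold of 0.05. CPM are TMM-scaled. Fold changes are edgeR's log2 values. The fit was tested on simulated data.

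Replicates differed by more than sampling noise in all 8 groups. In units of counting error, their median squared difference was 4.6 in female controls and 1.46 to 2.09 in the other groups, where noise alone gives 0.455. All groups shared the estimate of spread, and the part of the female controls in the counts of calls was not tested apart from leaving them out.

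The genes named for the difference over both sexes are the 12 largest rises and falls that passed, changed one way in males and females, averaged a log2 CPM of 1 or more and carry a proper symbol (not Gm plus a number, a clone name or one ending in Rik). For the other comparisons the 5 genes of smallest p per direction were open to naming, and for each gene list up to 6 members that passed. Tbr1, Pax6, Xist, Cldn5, Pdgfrb, Alas2, Csf1r and the host genes were named after their values were seen. Some genes within these rules are not reported here. The members and lists were chosen with earlier results of these data known. Alternatives were DESeq2 1.42.0, its size factors, a replicate block, no filter, the 8 libraries alone, protein-coding genes alone, thinning and leaving out libraries. The intronic share as covariate and IDs with a symbol alone were chosen after seeing the data.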

Additional observations from a re-analysis of the deposited data

Results flagged for a closer look

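Among 214 sets of 4 libraries examined for 1 library far from the other 3 by Dixon's test, 4 stood out, and chance alone gives about 1 in 20. In male maternal replicate 1, Mmrn1 was at 5.12 CPM, Gria2 at 339.5 CPM and Ntrk3 at 353 CPM, each below the other maternal libraries. In female dual replicate 2, the choroid plexus gene Kcne2 was at 4.49 CPM against at most 0.61 CPM in the other dual libraries.

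The step from maternal to dual exposure differed from the step from control to paternal exposure for 907 genes by the test of the difference itself. The named genes with a higher step under maternal exposure, as log2 differences, were D10Wsu102e (0.88), Pcdhgb5 (0.98), Lrrc7 (0.65), Kcnq1ot1 (1.07) and Lrtm1 (2.16). Those with a lower step were Shc1 (-0.83), Hbb-bs (-1.36), Igfbp2 (-0.56) and H19 (-0.98).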

How the results depend on the processing

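Against 1241 genes over both sexes, 1931 passed with no filter, 1962 in a fit of the group means of the 8 libraries alone, 2078 without both female controls, 42 among protein-coding genes alone and 0 with the intronic share as covariate; leaving out 1 library gave 389 to 2100. In males, against 0, DESeq2 called 2, no filter 166 and the 8 libraries alone 29. In females, against 1374, the 8 libraries alone gave 2231, protein-coding genes alone 47, the covariate 0 and leaving out 1 library 283 to 586. For the sex difference, against 0, DESeq2 called 37, no filter 125 and the 8 libraries alone 22. For the difference of steps, against 907, no filter gave 1808, the covariate 0 and leaving out 1 library 368 to 2169. With the replicate block 1227, 0, 1309, 0 and 933 genes passed; 1169 of the 1227 were among the 1241. The labels do not tie equal numbers to a shared litter or day, and deviations of equal numbers correlated at -0.11 in males and 0.212 in females. A single correlation per sex cannot tell whether equal numbers were paired. The covariate turned the list medians of ribosomal proteins (0.0687), oxidative phosphorylation (0.0352), microglia (0.0684) and histones (0.067), and the log2 fold changes of C79798 (-0.43), Mrpl34 (0.014), Malat1 (-0.17), Nktr (-0.0239), Clk1 (-0.0458), Pnisr (-0.0914) and Gria2 (-0.0478). The cause was not tested. Of 79 named genes that passed over both sexes, all lost their call with the covariate, 19 of them with it alone, and 16 lost it under 10 or more of 27 alternatives. Male libraries held as few as 15646083 counts and female ones up to 33489644, so counts of genes near 1 CPM are the least precise in males.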

Other observations

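Lists on chromatin, signalling and neighbouring brain regions gave few calls. Methyltransferases of H3K4 and their partners (19 tested), chromatin remodellers (27), and writers, erasers and readers of DNA methylation (16) had 0 calls, with medians of 0.01, 0.01 and -0.05 on the log2 scale. Retinoic acid signalling (17 tested) had a median of -0.10, the integrated stress and unfolded protein response (20) one of -0.14, one-carbon metabolism (22) one of -0.10, Hedgehog signalling (14) one of -0.08, immediate early genes (17) one of -0.13 and the interferon response (14) one of 0.02, each with 0 calls. GABA-A receptor subunits (12) and voltage-gated ion channels (19) had 0 calls and medians of 0.01 and 0.12. Genes of thalamus and hypothalamus (15) and of striatum and ventral forebrain (16) had 0 calls and medians of 0.05 and 0.13. Imprinted long non-coding RNAs held 3 rises among 9 tested, all of which stand among the nuclear RNAs above (Kcnq1ot1, Snhg14 and Rian), and imprinted protein-coding genes held 1 rise, Sgce, among 29.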
